A study of Mus musculus with 24 samples.

Results

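DNA replication and G1/S genes are described here in mouse kidneys: 40 genes that load, fire and run the replication machinery, package and methylate the new DNA, or drive the passage from G1 into S phase. They were chosen by symbol, as the rows of the normalized count table whose Ensembl identifier maps to the listed names. No threshold on a measured value is part of that rule, but the list was drawn up with earlier results of these data known. All 40 were found, each with 1 row, among the 55416 genes of the table. RNA sequencing was done on kidneys from 24 samples in 4 groups of 6, given by the labels as biological replicates: sham surgery in Polg+/+, sham surgery in PolgD257A, B-IRI in Polg+/+ and B-IRI in PolgD257A. Polg encodes the catalytic subunit of the polymerase that copies mitochondrial DNA, the D257A allele removes its proofreading, and the Polg+/+ and PolgD257A animals were littermates. IRI is ischemia reperfusion injury, in which the blood supply of the kidney is stopped and then restored, and the labels write the operated groups as B-IRI with no further word on the letter B. The study set out to learn how mutations of mitochondrial DNA contribute to kidney injury after ischemia and reperfusion. The number of copies of the allele, the age and sex of the mice and the time between surgery and collection are not given in the sources used here. RNA came from kidney tissue and not from sorted cells, so every value is an average over all cell types.

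Between 16689284 and 26341004 reads per library fell on genes. All 10 kidney epithelium markers checked (among them Cdh16, Pax8, Lrp2, Slc34a1 and Umod) were above 0 in all 24 libraries. One library stood apart for the genes described here: B-IRI PolgD257A replicate 2 was the highest of its group for 38 of the 40, against 22.4% of all genes tested, so the main results are given with and without it. Nothing in the labels says whether samples of a group shared a litter, a day or a cage, and p-values measure the spread between these samples.

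A dividing cell prepares its DNA for copying in G1, when the origin recognition complex, Cdc6 and Cdt1 load the ring of Mcm proteins onto DNA. At the start of S phase, Cdc45 and the GINS complex join the ring to make the active helicase, primase and the polymerases copy both strands, and the PCNA clamp, its loader, nucleases and ligase finish them. Transcription of many of these genes is held down in resting cells by retinoblastoma family proteins bound to E2F factors and rises when cyclin-dependent kinases release E2F in late G1. The adult kidney tubule divides rarely, and tubule cells that survive ischemia are known to re-enter the cell cycle during repair.

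Promoter sequence is shown first because E2F-type sites are a textbook feature of many of these genes. RefSeq promoter windows (GRCm38.p6, 250 bases before to 50 after each annotated start) were at hand for 32 of the 40 genes; Mcm4, Gins1, Gins2, Gins4, Prim2, Pole, Rfc2 and Ccne2 had none. A match was an exact run of TTTCCCGC, TTTCGCGC, TTTGCCGC or TTTGGCGC on either strand, and matches may overlap one another. Such a run was present for 14 of the 32 genes (43.8%): Mcm3, Mcm5, Mcm6, Mcm7, Orc1, Cdc6, Cdt1, Gins3, Pola1, Pold1, Rfc3, Lig1, Uhrf1 and Dnmt1. Of all 27025 genes with a window, 704 (2.6%) held one. Read in the 250 bases before the start alone, the shares were 31.2% and 2.16%. The stretches below were taken from 5 genes whose match lies before the start and outside annotated exons, from the helicase, the licensing factors, the polymerases and the methylation machinery. Each is written 5′ to 3′ on the strand of its gene, with positions counted from the first transcribed base and the matching letters in capitals.
Mcm5 (chr8:75109331-75109388, forward strand, positions -178 to -121): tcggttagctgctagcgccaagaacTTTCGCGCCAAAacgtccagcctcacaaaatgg
Mcm6 (chr1:128359783-128359840, reverse strand, positions -135 to -78): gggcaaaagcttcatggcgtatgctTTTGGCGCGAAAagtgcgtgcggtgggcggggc
Cdc6 (chr11:98907988-98908045, forward strand, positions -163 to -106): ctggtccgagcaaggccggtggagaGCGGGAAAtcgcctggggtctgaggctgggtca
Pola1 (chrX:93632261-93632318, reverse strand, positions -163 to -106): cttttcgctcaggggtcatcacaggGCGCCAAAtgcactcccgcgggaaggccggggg
Uhrf1 (chr17:56304103-56304160, forward strand, positions -210 to -153): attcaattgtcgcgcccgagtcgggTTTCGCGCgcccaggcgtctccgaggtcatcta
The Cdc6 and Uhrf1 stretches lie within the GENCODE M21 spans of their genes, between annotated exons, and the others lie upstream. In Mcm5 and Mcm6 the capitals hold 2 overlapping matches, one read on each strand. A match is a run of letters and was not measured as a bound site. The letters CCAAT, another common promoter element, were present for 20 of the 32 genes (62.5%) against 41.1% of all genes with a window. The cell cycle homology region typical of mitotic genes (TTTGAA or TTCGAA) was present for 7 (21.9%) against 21.7% of all, and for 77.8% of 27 mitosis and G2/M genes, of which 3.7% held an E2F-type run. In the 250 bases before the start alone, the region was present for 40.7% of those mitosis genes, 21.9% of the 32 genes and 19.6% of all. E2F-type runs in the whole window were also present in the nearest lists, for 41.2% of 17 other G1/S regulators and 31.4% of 35 other replication genes with a window. Of the 32 genes, 31 were higher after B-IRI in both genotypes, as described next, and all 14 with an E2F-type run were among them. The remaining gene with a window, Mcm10, held none. With only 1 gene on the other side, these counts cannot show whether a run goes with the rise.

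After B-IRI most of these genes rose in both genotypes, and none fell. In Polg+/+ kidneys 36 of the 40 were higher than in sham at an adjusted p under 0.05 (limma on log2 of the normalized count plus 1, Benjamini-Hochberg over the 17430 genes tested), where 21.4% of all genes tested were higher and 19.8% lower. In PolgD257A kidneys 37 of the 40 were higher, against 30.2% higher and 30.3% lower of all genes tested. Because the genes were chosen with earlier results known, these shares describe the list and are not an independent test of it. The median log2 change over the 40 was 0.89 in Polg+/+ (0.08 to 2.91) and 1.21 in PolgD257A (0.01 to 3.23), while the median over all genes tested was -0.0082 and -0.0011. All 40 reached the minimum of 10 normalized counts in 6 or more libraries and were tested. Orc1 reached it in fewer than 6 sham libraries and was kept through its B-IRI libraries, so its rise is not independent of that filter. The same 36 passed in both genotypes, as did 19% of all genes tested; Prim2 passed in PolgD257A only, and Mcm10, Gins4 and Rfc2 passed in neither. Whether more cells carried these transcripts or each cell held more of them cannot be told apart in whole kidney.

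The ranges of the 6 libraries separated for most of the genes. Every B-IRI library was above every sham library of its genotype for 28 of the 40 genes in Polg+/+ (11.5% of all genes tested) and for 33 in PolgD257A (18.8%). Without B-IRI PolgD257A replicate 2 the same comparison in PolgD257A again gave 37 higher genes, with a median log2 change of 1.10. Of the 36 genes higher in Polg+/+, 33 stayed past the threshold in each of the alternative analyses that tested them (at most 36), the exceptions being Orc1, Gins3 and Rfc5; all 37 in PolgD257A stayed past it.

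**Figure D1:**
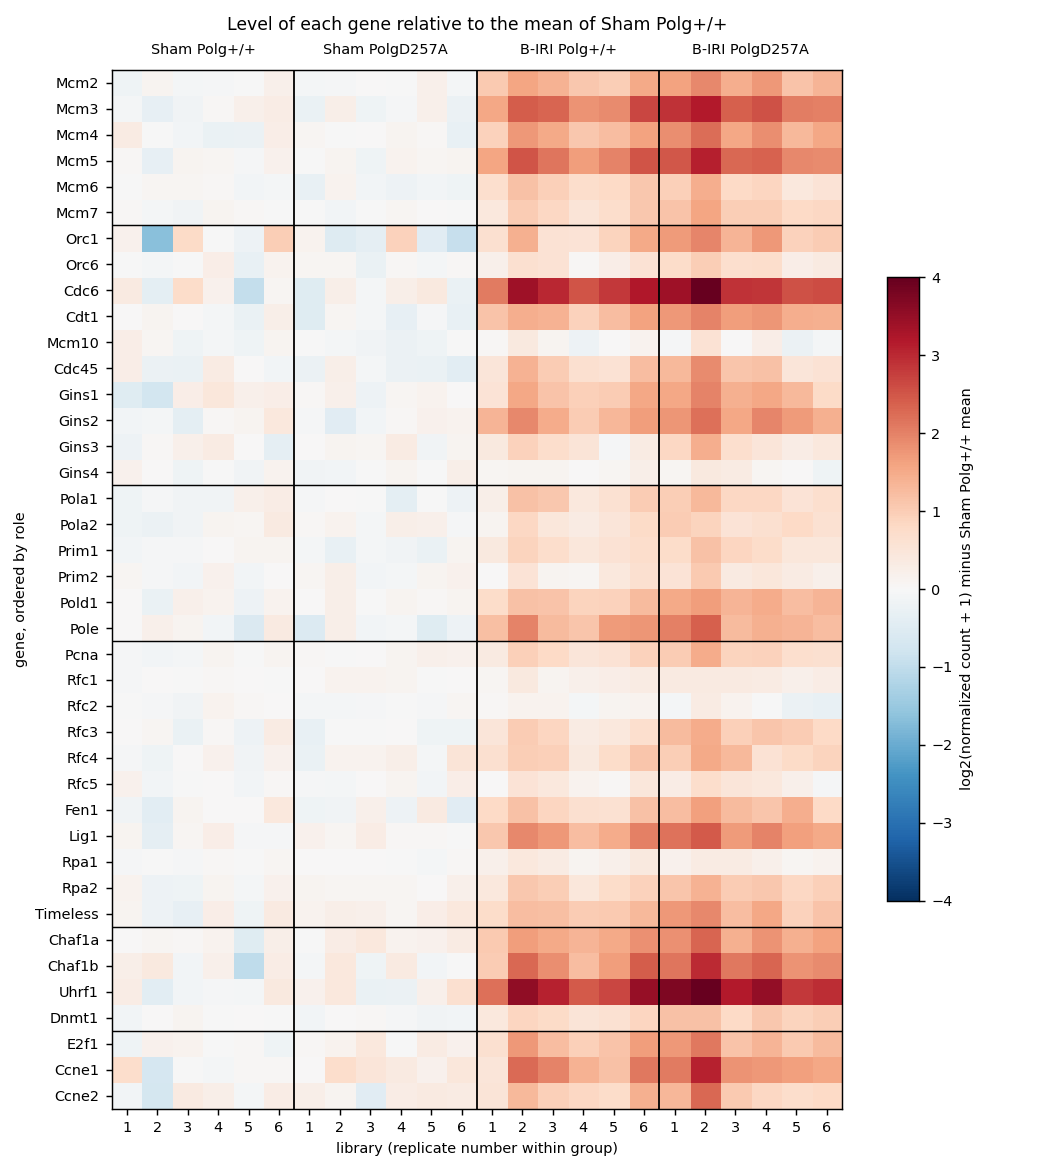
Each of the 40 genes (rows, grouped by role) in each of the 24 libraries (columns, by group and replicate), coloured by log2(normalized count + 1) minus the gene's mean in sham Polg+/+. The sham columns are pale for almost all genes, the B-IRI columns are red, deepest for Cdc6, Uhrf1, Mcm3 and Mcm5 and nearly as pale as sham for Mcm10, Gins4, Rfc1, Rfc2, Rfc5 and Rpa1, and B-IRI PolgD257A replicate 2 is the deepest column.

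In the map of all libraries, the rows named as pale after B-IRI belong to the licensing and firing factors and to the clamp, clamp loader and RPA block. Prim2, in the polymerase and primase block, also changed little, by log2 0.30 in Polg+/+ and 0.41 in PolgD257A. Such rows are absent from the Mcm2 to Mcm7 and chromatin blocks.

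**Figure D2:**
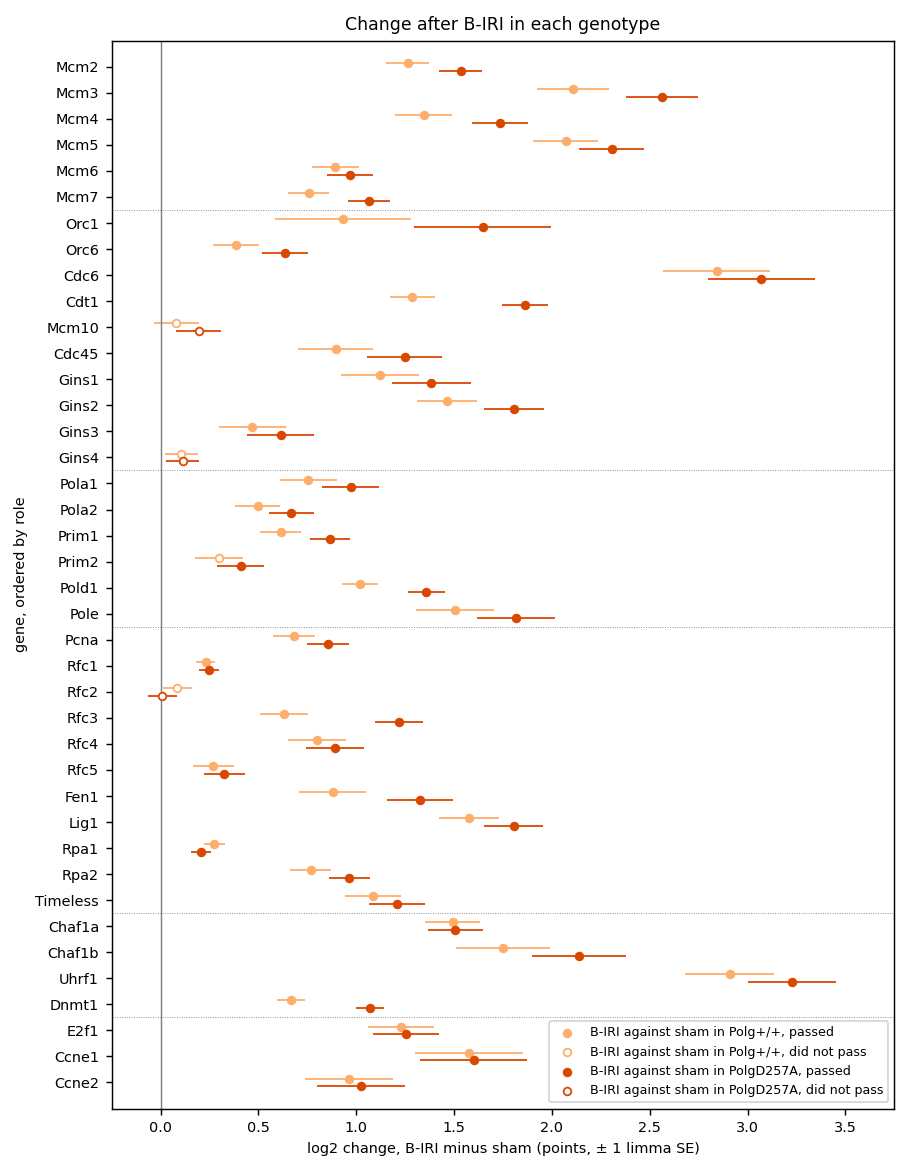
Log2 change from sham to B-IRI (x axis) for each gene (y axis, by role) in Polg+/+ and PolgD257A, with bars of 1 limma standard error; filled points passed an adjusted p under 0.05. Cdc6, Uhrf1, Mcm3 and Mcm5 lie farthest right, at log2 2.07 to 3.23, and the PolgD257A point lies to the right of the Polg+/+ point for 38 of the 40 genes.

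The points of each genotype come from different libraries, and the difference between them is tested further on.

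The 6 Mcm2 to Mcm7 subunits, which form the ring of the replicative helicase, were all higher in both genotypes, with a median log2 change of 1.30 in Polg+/+ and 1.63 in PolgD257A. Mcm3 (chr1:20802968-20820312, reverse strand, GRCm38, GENCODE M21) ran from 76.0 to 117 (median 94.8) in sham Polg+/+, 80.0 to 112 (median 88.7) in sham PolgD257A, 283 to 614 (median 419) after B-IRI in Polg+/+ and 389 to 880.0 (median 535) after B-IRI in PolgD257A (normalized counts). No sham library reached any B-IRI library of its genotype. The change was log2 2.11 ± 0.18 (adjusted p = 1.9e-09) in Polg+/+ and 2.56 ± 0.18 (adjusted p = 6.3e-12) in PolgD257A, a fitted 4.31-fold and 5.90-fold rise. Mcm5 (chr8:75109569-75128439, forward strand), whose promoter stretch is printed above, ran from 109 to 155 (median 142) in sham Polg+/+, 121 to 149.8 (median 147) in sham PolgD257A, 408 to 796 (median 578) after B-IRI in Polg+/+ and 514 to 1185 (median 694) after B-IRI in PolgD257A. The sham libraries lay close together and the B-IRI libraries far above them, with B-IRI PolgD257A replicate 2 the single highest. Relative to sham, Mcm5 rose by log2 2.07 ± 0.17 (adjusted p = 4.5e-10) in Polg+/+ and 2.31 ± 0.17 (adjusted p = 6.6e-12) in PolgD257A. The other subunits had smaller fitted changes and also separated fully from sham in both genotypes: Mcm2 by 1.26 and 1.53, Mcm4 by 1.34 and 1.74, Mcm6 by 0.89 and 0.97 and Mcm7 by 0.76 and 1.06 (log2, Polg+/+ and PolgD257A). Without B-IRI PolgD257A replicate 2 the PolgD257A changes of Mcm3 and Mcm5 were 2.43 and 2.15. Exons of Mcm7 overlap Ap4m1 and Cops6 on the other strand and hold the microRNA genes Mir25 and Mir93, and whether the counting used strand is not given in the sources used here. Thus reads of Mcm7 and of its overlapping neighbours may not be separable.

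Among the 10 licensing and firing factors, 8 were higher in both genotypes (median log2 change 0.91 in Polg+/+ and 1.31 in PolgD257A). Cdc6, the ATPase that helps to load the Mcm ring (chr11:98907801-98923940, forward strand), was low in sham kidneys. Its normalized counts ran from 5.91 to 21.4 (median 13.7) in sham Polg+/+, 8.65 to 16.6 (median 13.2) in sham PolgD257A, 56.1 to 139 (median 102) after B-IRI in Polg+/+ and 77.7 to 237 (median 97.7) after B-IRI in PolgD257A. Every B-IRI library was above every sham library, and the lowest B-IRI value was well above the highest sham value. The rise of Cdc6 came to log2 2.84 ± 0.27 (adjusted p = 8.6e-09) in Polg+/+ and 3.07 ± 0.27 (adjusted p = 3.5e-10) in PolgD257A, or 7.17-fold and 8.39-fold. Cdt1, which brings the Mcm ring to the origin and is held back by geminin (chr8:122568015-122573554, forward strand), ran from 112 to 159 (median 137) in sham Polg+/+, 97.3 to 143 (median 118) in sham PolgD257A, 255 to 419 (median 337) after B-IRI in Polg+/+ and 363 to 538 (median 444) after B-IRI in PolgD257A. Both sham groups overlapped, and both B-IRI groups were above them. By limma, Cdt1 changed by log2 1.29 ± 0.12 (adjusted p = 2.7e-09) in Polg+/+ and 1.86 ± 0.12 (adjusted p = 4.2e-13) in PolgD257A.

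Gins2, a subunit of the GINS complex (chr8:120578633-120589304, reverse strand), ran from 37.2 to 67.0 (median 48.7) in sham Polg+/+, 35.9 to 55.5 (median 49.1) in sham PolgD257A, 101 to 191 (median 133) after B-IRI in Polg+/+ and 135 to 229.9 (median 167) after B-IRI in PolgD257A. No B-IRI library overlapped sham in either genotype. The change was log2 1.46 ± 0.15 (adjusted p = 3.2e-08) in Polg+/+ and 1.81 ± 0.15 (adjusted p = 1.2e-10) in PolgD257A. Gins1 changed by 1.12 and 1.38 (log2, Polg+/+ and PolgD257A) and Gins3 by 0.47 and 0.61, both past the threshold, whereas Gins4 changed by 0.11 ± 0.08 (adjusted p = 0.33) and 0.11 ± 0.08 (adjusted p = 0.25). Gins4 ran from 366 to 465 (median 411) in sham Polg+/+, 372 to 489 (median 408) in sham PolgD257A, 418 to 489 (median 439) after B-IRI in Polg+/+ and 369 to 545 (median 434) after B-IRI in PolgD257A, and its 4 groups overlapped. Per kilobase of exon, the sham Polg+/+ level of Gins4 was 306 ± 30.3 normalized counts (mean ± SD, n = 6), against 28.8 ± 8.73 for Gins1, 12.2 ± 2.42 for Gins2 and 17.1 ± 3.09 for Gins3. Mcm10, which acts when the loaded helicase is activated, ran from 124 to 168 (median 138) in sham Polg+/+, 119 to 139 (median 129) in sham PolgD257A, 120.4 to 182 (median 147) after B-IRI in Polg+/+ and 118 to 210.5 (median 139) after B-IRI in PolgD257A. Its groups overlapped, and the change was 0.08 ± 0.11 (adjusted p = 0.61) and 0.20 ± 0.11 (adjusted p = 0.14), past the threshold in neither genotype. Cdc45, the helicase partner of GINS, rose by 0.89 and 1.25. Orc6 rose by 0.39 and 0.64. Orc1, an ATPase subunit of the origin recognition complex, was low in sham (a mean of 11.3 normalized counts in Polg+/+) and rose by 0.93 ± 0.35 (adjusted p = 0.034) and 1.65 ± 0.35 (adjusted p = 2.1e-04). In Polg+/+ the Orc1 call held in 26 of the 35 alternative analyses that tested it and was lost, among others, without sham Polg+/+ replicate 2 or 5 or B-IRI Polg+/+ replicate 2 or 6; the value moved most without sham Polg+/+ replicate 2, at 2.34 normalized counts, where it was 0.60 (adjusted p = 0.12).

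The 6 polymerase and primase genes had a median log2 change of 0.68 in Polg+/+ (5 of 6 higher) and 0.92 in PolgD257A (6 of 6). Pole, the catalytic subunit of the leading strand polymerase (chr5:110286306-110337474, forward strand), ran from 28.4 to 56.0 (median 44.7) in sham Polg+/+, 29.2 to 50.7 (median 38.7) in sham PolgD257A, 94.6 to 173 (median 123) after B-IRI in Polg+/+ and 103 to 231 (median 115) after B-IRI in PolgD257A. Its B-IRI libraries all lay above sham. Relative to sham, Pole rose by log2 1.51 ± 0.20 (adjusted p = 1.1e-06) in Polg+/+ and 1.82 ± 0.20 (adjusted p = 1.3e-08) in PolgD257A. Pold1, the catalytic subunit of the lagging strand polymerase (chr7:44532746-44548849, reverse strand), ran from 151 to 209.6 (median 193) in sham Polg+/+, 179.6 to 215 (median 193) in sham PolgD257A, 308 to 439 (median 374) after B-IRI in Polg+/+ and 432 to 581 (median 496) after B-IRI in PolgD257A. Sham values were tight, and the B-IRI groups were above them without overlap. The rise of Pold1 came to log2 1.02 ± 0.09 (adjusted p = 3.1e-09) in Polg+/+ and 1.36 ± 0.09 (adjusted p = 2.1e-12) in PolgD257A. Of the polymerase alpha and primase complex, which starts each new strand, the catalytic subunit Pola1 changed by 0.76 and 0.97, Pola2 by 0.50 and 0.67 and Prim1 by 0.61 and 0.87, all past the threshold. Prim2, the large primase subunit, changed by 0.30 ± 0.12 (adjusted p = 0.051) and 0.41 ± 0.12 (adjusted p = 0.0051); its Polg+/+ value passed the threshold in 14.0 of the 36 alternative analyses.

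Of the 11 genes of the clamp, clamp loader, flap and nick processing, single-strand binding and fork protection, 10 were higher in each genotype, with a median log2 change of 0.68 and 0.89. Lig1, the ligase that seals the lagging strand (chr7:13277283-13311433, forward strand), ran from 97.0 to 151 (median 127) in sham Polg+/+, 124 to 153 (median 131) in sham PolgD257A, 266 to 514 (median 382) after B-IRI in Polg+/+ and 364 to 684 (median 455) after B-IRI in PolgD257A. The ranges of sham and B-IRI did not overlap. By limma, Lig1 changed by log2 1.58 ± 0.15 (adjusted p = 8.4e-09) in Polg+/+ and 1.80 ± 0.15 (adjusted p = 1.1e-10) in PolgD257A. Timeless, a fork protection factor (chr10:128232065-128252941, forward strand), ran from 78.9 to 127 (median 97.2) in sham Polg+/+, 104 to 132 (median 115) in sham PolgD257A, 166 to 248 (median 217) after B-IRI in Polg+/+ and 189.8 to 382 (median 266) after B-IRI in PolgD257A. Its B-IRI libraries were again all above sham. The change was log2 1.09 ± 0.14 (adjusted p = 1.1e-06) in Polg+/+ and 1.21 ± 0.14 (adjusted p = 5.0e-08) in PolgD257A. Fen1, the flap nuclease, rose by 0.88 and 1.33 and Pcna, the clamp itself, by 0.68 and 0.85. Pcna was the most abundant of the 40 per kilobase of exon, at 408 ± 26.2 normalized counts in sham Polg+/+, 661 ± 108 after B-IRI in Polg+/+ and 794 ± 182 after B-IRI in PolgD257A (mean ± SD, n = 6).

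The clamp loader subunits covered a wide range of fitted changes. Rfc3, a small subunit (chr5:151642756-151651242, reverse strand), ran from 108 to 164 (median 133) in sham Polg+/+, 106 to 132 (median 122) in sham PolgD257A, 163 to 266 (median 195) after B-IRI in Polg+/+ and 227 to 368 (median 274) after B-IRI in PolgD257A. In Polg+/+ 5 of the 6 B-IRI libraries were above all sham libraries, and in PolgD257A all 6 were. Relative to sham, Rfc3 rose by log2 0.63 ± 0.12 (adjusted p = 1.6e-04) in Polg+/+ and 1.22 ± 0.12 (adjusted p = 2.5e-09) in PolgD257A. Rfc4 rose by 0.80 and 0.89, while Rfc1, the large subunit, rose by 0.23 and 0.25 and Rfc5 by 0.27 and 0.33. Rfc2 changed by 0.09 ± 0.07 (adjusted p = 0.37) and 0.01 ± 0.07 (adjusted p = 0.93), past the threshold in neither. Rfc2 ran from 897 to 1097 (median 978) in sham Polg+/+, 927 to 1035 (median 956) in sham PolgD257A, 936 to 1097 (median 1071) after B-IRI in Polg+/+ and 805 to 1225 (median 956) after B-IRI in PolgD257A, with all 4 groups overlapping. Of the single-strand binding subunits, Rpa2 rose by 0.77 and 0.97 and Rpa1, the large subunit, by 0.27 and 0.21. Both passed the threshold in both genotypes, and the difference between the subunits was not tested. Exons of Rfc2, Rfc4, Rfc5, Fen1, Lig1 and Timeless overlap a gene on the other strand, and those of Rpa1 a gene on the same strand; the same holds on the other strand for Orc1, Orc6, Cdc45, Gins2, Pole, Chaf1a and Ccne2.

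The 4 genes that package and methylate newly copied DNA were all higher in both genotypes (median log2 change 1.62 and 1.82). Uhrf1, which reads hemimethylated DNA behind the fork and recruits Dnmt1 (chr17:56303321-56323486, forward strand), had the largest change of the 40. Its normalized counts ran from 31.6 to 56.0 (median 40.7) in sham Polg+/+, 35.2 to 67.4 (median 49.2) in sham PolgD257A, 202 to 509.6 (median 323) after B-IRI in Polg+/+ and 312 to 739 (median 447) after B-IRI in PolgD257A. The lowest B-IRI library was far above the highest sham library in both genotypes. The rise of Uhrf1 came to log2 2.91 ± 0.23 (adjusted p = 2.6e-10) in Polg+/+ and 3.23 ± 0.23 (adjusted p = 3.6e-12) in PolgD257A, or 7.50-fold and 9.37-fold. Chaf1b, a subunit of the chromatin assembly factor that deposits histones at the fork (chr16:93883901-93906115, forward strand), ran from 16.6 to 45.6 (median 40.3) in sham Polg+/+, 30.7 to 46.5 (median 33.3) in sham PolgD257A, 70.8 to 188 (median 120.1) after B-IRI in Polg+/+ and 123 to 279.8 (median 154) after B-IRI in PolgD257A. No library of B-IRI overlapped sham, and B-IRI PolgD257A replicate 2 was far above the other 5 of its group. By limma, Chaf1b changed by log2 1.75 ± 0.24 (adjusted p = 2.1e-06) in Polg+/+ and 2.14 ± 0.24 (adjusted p = 2.2e-08) in PolgD257A; without that library it was 1.98 in PolgD257A. Chaf1a, the large subunit, rose by 1.49 and 1.51. Dnmt1, the methyltransferase that copies the methylation pattern (chr9:20907209-20959888, reverse strand), ran from 545 to 633 (median 586) in sham Polg+/+, 531 to 610.0 (median 558) in sham PolgD257A, 783 to 1072 (median 942) after B-IRI in Polg+/+ and 1025 to 1326 (median 1195) after B-IRI in PolgD257A. The B-IRI libraries of PolgD257A were mostly above those of Polg+/+, and both were above sham. The change was log2 0.67 ± 0.07 (adjusted p = 7.4e-08) in Polg+/+ and 1.07 ± 0.07 (adjusted p = 2.5e-12) in PolgD257A.

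All 3 regulators of the G1 to S passage were higher in both genotypes (median log2 change 1.23 and 1.25). Ccne1, the cyclin E that activates Cdk2 (chr7:38097984-38107534, reverse strand), was low in sham and ran from 8.18 to 23.0 (median 13.9) in sham Polg+/+, 14.1 to 23.3 (median 18.7) in sham PolgD257A, 19.9 to 69.7 (median 47.8) after B-IRI in Polg+/+ and 41.8 to 123 (median 49.0) after B-IRI in PolgD257A. In Polg+/+ 5 of the 6 B-IRI libraries exceeded all sham libraries, and in PolgD257A all 6 did. Relative to sham, Ccne1 rose by log2 1.57 ± 0.27 (adjusted p = 5.0e-05) in Polg+/+ and 1.60 ± 0.27 (adjusted p = 1.6e-05) in PolgD257A; without B-IRI PolgD257A replicate 2, at 123 normalized counts, it was 1.38 in PolgD257A. E2f1, the activating E2F factor (chr2:154559407-154569892, reverse strand), ran from 62.2 to 79.5 (median 72.0) in sham Polg+/+, 70.7 to 95.6 (median 79.1) in sham PolgD257A, 111 to 236 (median 163) after B-IRI in Polg+/+ and 147 to 311 (median 176) after B-IRI in PolgD257A. Sham and B-IRI did not overlap. The rise of E2f1 came to log2 1.23 ± 0.17 (adjusted p = 2.1e-06) in Polg+/+ and 1.25 ± 0.17 (adjusted p = 4.3e-07) in PolgD257A. Ccne2 rose by 0.96 and 1.02.

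**Figure D3:**
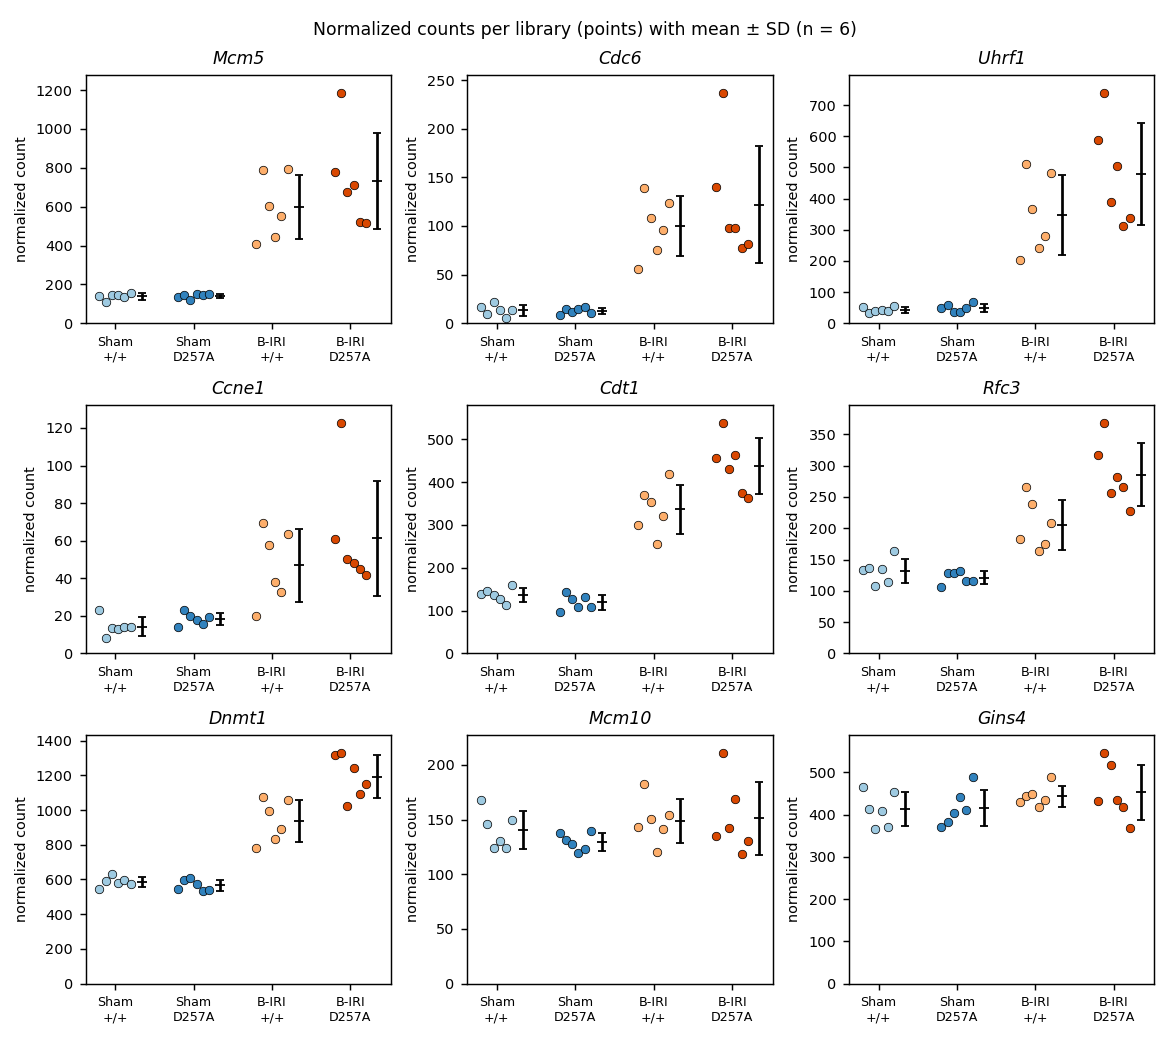
Normalized count (y axis, starting at 0) of 9 genes in each library (points, by group) with the group mean and SD (bars, n = 6). Mcm5, Cdc6 and Uhrf1 are near the axis in sham and spread widely after B-IRI, Cdt1, Rfc3 and Dnmt1 are higher after B-IRI in PolgD257A than in Polg+/+, and Mcm10 and Gins4 overlap across all 4 groups.

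The plots of counts by library show that the spread after B-IRI was wide for Mcm5, Cdc6 and Uhrf1 and narrow for Gins4.

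The comparison of genotypes in sham kidneys asks whether the allele alone moved these genes. None of the 40 passed the threshold in either direction (limma; 0 at an unadjusted p under 0.05, 0 with edgeR and 0 with DESeq2), where 0.126% of all genes tested passed. The median log2 difference, PolgD257A minus Polg+/+, was 0.01, from -0.20 for Orc1 to 0.37 for Ccne1. For 29 of the 40 genes the 95% interval of the difference lay within 0.5 on either side of 0. The widest bounds were -0.91 for Orc1 and 0.94 for Ccne1, both of low count, so differences up to those bounds in these genes were not excluded.

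After B-IRI, 7 of the 40 were higher in PolgD257A than in Polg+/+ and none was lower, where 14.3% of all genes tested were higher and 15.2% lower. The share of 17.5% among the 40 was thus near that of all genes. The 7 were Mcm4 (0.38 ± 0.14, adjusted p = 0.046), Mcm7 (0.29 ± 0.11, 0.038), Cdt1 (0.38 ± 0.12, 0.013), Pold1 (0.42 ± 0.09, 0.0012), Rfc3 (0.48 ± 0.12, 0.0038), Rpa2 (0.30 ± 0.11, 0.034) and Dnmt1 (0.35 ± 0.07, 7.3e-04; log2 difference ± SE and limma adjusted p). For 37 of the 40 the difference was positive, with a median of 0.25. Over all genes tested the median difference was 0.0093, with quartiles of -0.17 and 0.17. For none of the 40 did the libraries of the genotypes separate fully (4.65% of all genes tested were higher with no overlap). Dnmt1 and Pold1 came nearest, with 5 of 6 PolgD257A libraries above all 6 of Polg+/+. edgeR and DESeq2 on the recovered reads each called 8 higher. In the same comparison markers of other cell types and of injury also differed. Higher in PolgD257A were 7 of 8 fibroblast, 3 of 6 endothelium, 1 of 5 podocyte and 4 of 5 tubule injury markers. Of 6 neutrophil markers listed, 3 passed the count filter, and these 3 were higher. Of 10 macrophage and monocyte markers 3 were higher and 1 lower, and of 10 kidney epithelium markers 6 were lower and 1 higher. Of 8 T and NK cell markers 1 was lower, as was 1 of 5 B and plasma cell markers, and none was higher. Their part in the genotype difference of the 40 genes was not tested.

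The count of 7 rested on single libraries. It was 4 without B-IRI PolgD257A replicate 1, 2 or 4 or B-IRI Polg+/+ replicate 1, 4 or 5, 11 without B-IRI Polg+/+ replicate 2 or 6 or B-IRI PolgD257A replicate 5, and 12 without B-IRI PolgD257A replicate 6. Cdt1, Pold1, Rfc3 and Dnmt1 passed in every alternative run; Mcm4, Mcm7 and Rpa2 did not. Without B-IRI PolgD257A replicate 2 the median difference of the 40 was 0.15 (0.16 with libraries weighted by their fit), that of Mcm7 was 0.19, and Rfc2 was lower in PolgD257A at -0.18 (adjusted p = 0.042). The largest fitted difference, 0.52 for Orc1, did not pass (adjusted p = 0.29). None of the 40 is among the 1401 genes of the authors' deposited table of genotype differences. By its name that table holds significant genes only, and whether a size cutoff was applied was not tested. Of the marker and other listed genes found in it, the smallest absolute log2 difference was 0.50 (Col1a1). The authors' values come from another fit than the limma values, where the difference of Col1a1 was 0.64. All 7 genes above had smaller fitted differences, so their absence does not show that the authors found none. Of the 1401, 1345 were tested here, and all 1345 had the same sign as the difference after B-IRI. Both come from the same libraries.

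**Figure D4:**
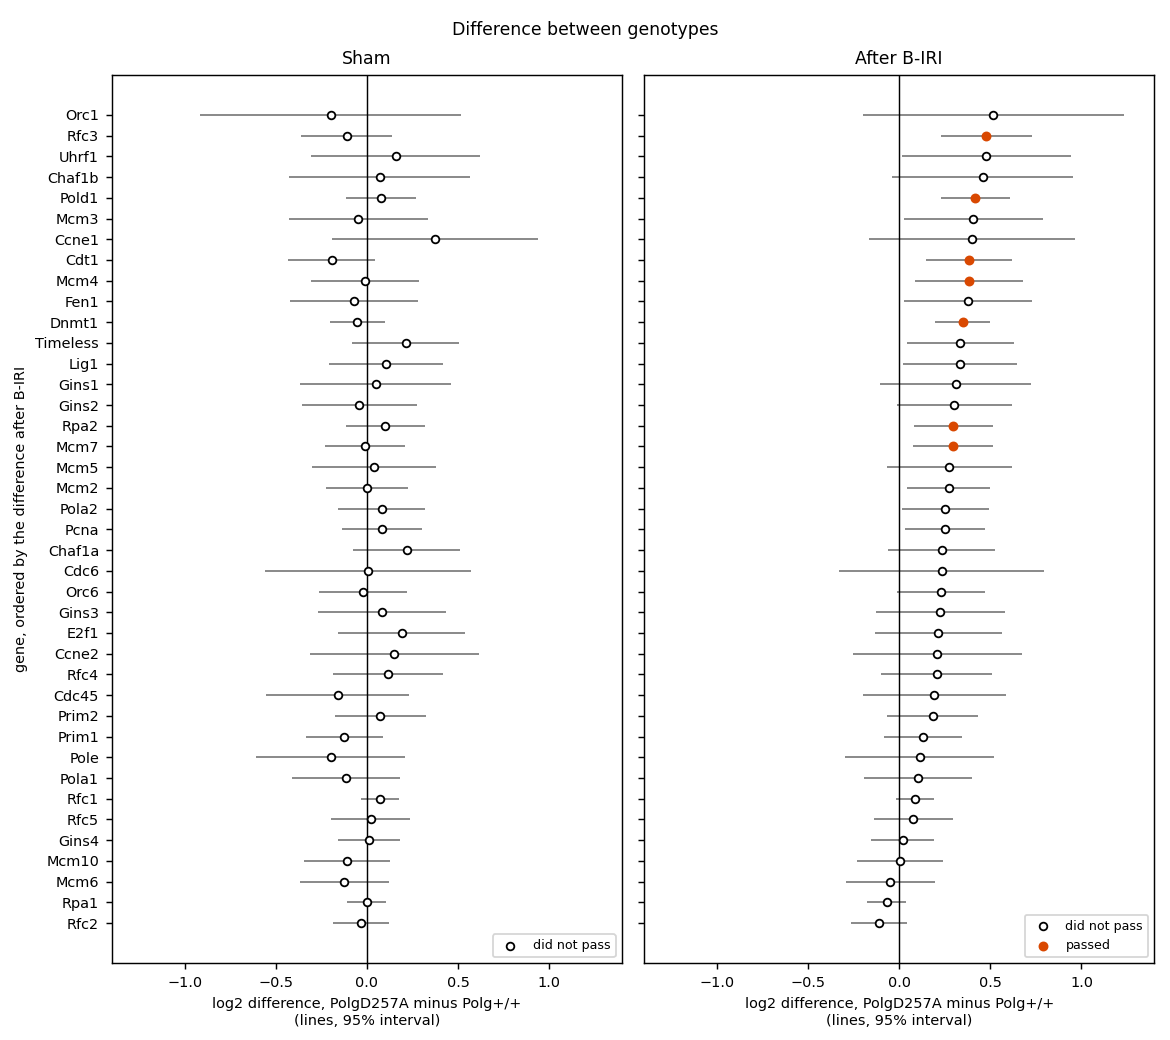
Log2 difference of PolgD257A minus Polg+/+ (x axis) for each gene (y axis, ordered by the difference after B-IRI) in sham kidneys (left) and after B-IRI (right), with 95% intervals; filled points passed an adjusted p under 0.05. The sham points scatter around 0 with none filled, and after B-IRI 37 of the 40 points lie to the right of 0, 7 of them filled.

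The plot of genotype differences shows that most intervals after B-IRI still reach 0, although nearly all points share a sign. The 40 genes were measured in the same libraries, so their shared sign is not 40 independent observations.

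The interaction tests directly whether the change after B-IRI differed between the genotypes. It was past the threshold for 3 of the 40 genes, all with the larger rise in PolgD257A, where 6.87% of all genes tested had a positive and 9.08% a negative interaction. The share of 7.5% among the 40 was near that background. Cdt1 rose by 0.58 more (SE 0.16, adjusted p = 0.017), Rfc3 by 0.59 more (SE 0.17, adjusted p = 0.020) and Dnmt1 by 0.40 more (SE 0.10, adjusted p = 0.0094; log2, limma). Each of the 3 passed in all 35 alternatives, with a log2 value of 0.47 to 0.64 for Cdt1, 0.49 to 0.67 for Rfc3 and 0.35 to 0.44 for Dnmt1. Without B-IRI PolgD257A replicate 2 the values were 0.51 (adjusted p = 0.028), 0.51 (adjusted p = 0.033) and 0.37 (adjusted p = 0.015). The median over the 40 was 0.23, 0.13 without that library and 0.09 with libraries weighted by their fit. In the interaction 5 of 8 fibroblast, 4 of 5 tubule injury and 1 of 5 podocyte markers were also higher. Lower were 5 of 10 kidney epithelium and 1 of 10 macrophage and monocyte markers, and the part of these markers was not tested. Cdt1, Rfc3 and Dnmt1 are among the 14 of 32 genes with an E2F-type run in a promoter window. The run of Cdt1 lies after the start, and those of Dnmt1 lie in a window inside the gene. A link between such runs and the interaction was not tested. For the 37 genes that did not pass, a difference in response was not shown, and the intervals reached 1.73 for Orc1.

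Averaged over the 40 genes, log2(normalized count + 1) relative to the sham Polg+/+ mean was 0.0168 ± 0.0487 in sham PolgD257A, 1.01 ± 0.277 after B-IRI in Polg+/+ and 1.26 ± 0.300 after B-IRI in PolgD257A (mean ± SD, n = 6), with a SD of 0.124 in sham Polg+/+. The B-IRI Polg+/+ libraries ran from 0.676 (replicate 1) to 1.34 (replicate 2) and the B-IRI PolgD257A libraries from 0.974 (replicate 6) to 1.78 (replicate 2). The genes moved together from library to library. In B-IRI Polg+/+ replicate 2 was the highest for 26 genes (15.5% of all genes tested) and replicate 6 for the other 14 (18.3%). Replicate 1 was the lowest for 26 (22.5%). In B-IRI PolgD257A, replicate 5 was the lowest for 21 (15.2% of all genes tested) and replicate 6 for 15 (15.9%). The SD of log2 values was larger after B-IRI than in sham for 31 of the 40 genes in Polg+/+ (47.7% of all genes tested) and for 37 in PolgD257A (56.7%). The median SD of the 40 went from 0.205 to 0.271 in Polg+/+ and from 0.144 to 0.301 in PolgD257A.

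**Figure D5:**
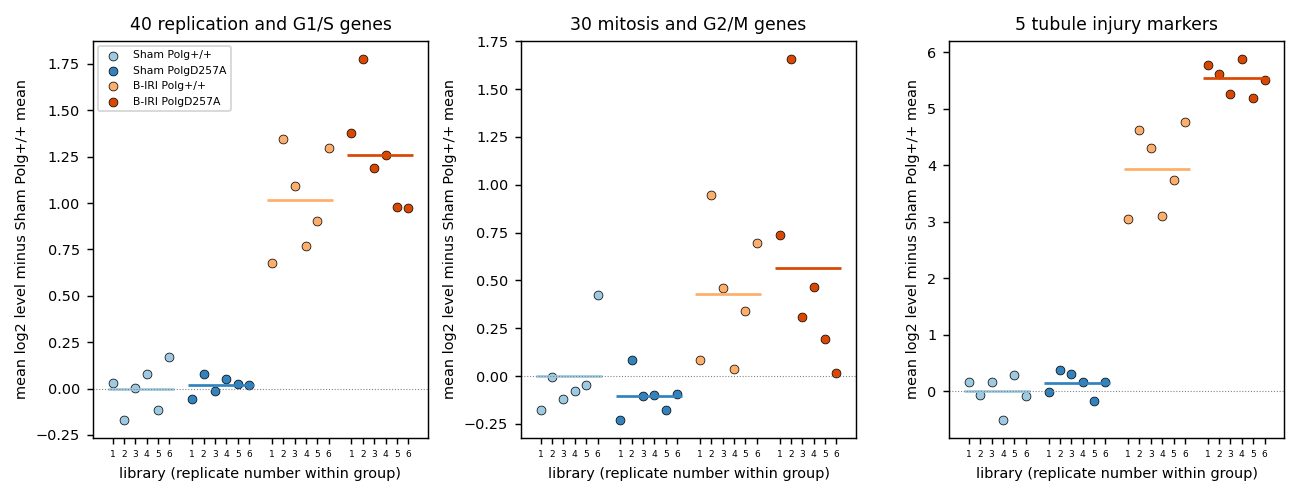
Mean log2 level of 3 gene sets in each library (points, by group) relative to the sham Polg+/+ mean, with the group mean as a line: the 40 replication and G1/S genes, 30 mitosis and G2/M genes, and 5 tubule injury markers. The replication means separate sham from B-IRI in both genotypes, the mitosis means overlap between sham and B-IRI in part, with B-IRI PolgD257A replicate 2 highest at 1.66, and the injury means are highest in B-IRI PolgD257A.

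In the plot of means by library, the injury markers Havcr1, Lcn2, Krt20, Vcam1 and Sox9 ran from 3.04 to 4.76 in B-IRI Polg+/+, lowest in replicates 1 and 4 and highest in 6 and 2. In B-IRI PolgD257A they ran from 5.19 to 5.88, with replicate 2 at 5.62 inside that range. Their part in the level of the replication genes was not tested.

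Other genes of the pathway, listed by role beside the 40, were counted in the same way. Of all genes tested, 21.4% were higher and 19.8% lower after B-IRI in Polg+/+, and 30.2% and 30.3% in PolgD257A. Of 41 further replication genes, 25 were higher and 0 lower after B-IRI in Polg+/+ and 27 higher and 3 lower in PolgD257A, with medians of 0.32 and 0.45. The chromatin remodeler Hells (2.38 and 2.85, log2 in Polg+/+ and PolgD257A) and the checkpoint kinase Chek1 (2.26 and 2.42) rose. The histone chaperone Nasp (0.55 and 0.83) and the firing factor Topbp1 (0.49 and 0.86) also rose. The 3 that fell in PolgD257A were Orc3 (-0.19), Pole4 (-0.21) and Rnaseh2c (-0.22). Of 22 further G1/S regulators tested, 12 were higher and 2 lower in Polg+/+ and 15 higher and 4 lower in PolgD257A. The kinase Cdk4 (0.42 and 0.70), cyclin D1 (0.38 and 0.59 for Ccnd1), the E2F partner Tfdp1 (0.46 and 0.72) and E2f4 (0.27 and 0.68) rose, and the retinoblastoma relative Rbl2 (-0.34 and -0.66) and Tfdp2 (-0.32 and -0.43) fell in both. E2f5 (-0.24) and Ccnd3 (-0.13) fell in PolgD257A; in Polg+/+ they changed by -0.14 and 0.06 and did not pass.

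Inhibitors of the cyclin-dependent kinases moved both ways. Of 6 tested, 2 were higher and 2 lower in Polg+/+ and 3 higher and 1 lower in PolgD257A. Too few were tested to set these counts apart from the shares of all genes given above. Cdkn2a was under the count filter and was not tested. Cdkn1a, the p21 inhibitor that binds both cyclin-dependent kinases and PCNA, ran from 80.7 to 137 (median 99.96) in sham Polg+/+, 85.6 to 119.9 (median 94.4) in sham PolgD257A, 220.2 to 653 (median 488) after B-IRI in Polg+/+ and 827 to 1213 (median 984) after B-IRI in PolgD257A. Its B-IRI libraries were above all sham libraries in both genotypes. By limma, Cdkn1a changed by log2 2.13 ± 0.18 (adjusted p = 8.1e-10) in Polg+/+ and 3.35 ± 0.18 (adjusted p = 3.0e-14) in PolgD257A, and the difference of the changes was 1.22 ± 0.25 (adjusted p = 0.0019). Cdkn1b, the p27 inhibitor of resting cells, fell by 0.28 and 0.46. Cdkn1c, the p57 inhibitor, rose by 0.42 and 0.31. Cdkn2b, the p15 inhibitor, changed by 0.27 ± 0.19 (adjusted p = 0.27) and 0.45 ± 0.19 (adjusted p = 0.040), and Cdkn2c, the p18 inhibitor, by -0.26 ± 0.10 (adjusted p = 0.042) and -0.19 ± 0.10 (adjusted p = 0.098). Thus a cell cycle inhibitor and the genes of S phase were higher in the same kidneys, and whether in the same cells was not measured.

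Of 11 genes of deoxynucleotide supply, 7 were higher and 2 lower in Polg+/+ and 6 higher and 2 lower in PolgD257A, with medians of 0.43 and 0.40. Rrm1, the large subunit of ribonucleotide reductase, changed by 0.74 and 1.10 and thymidylate synthase (Tyms) by 0.69 and 0.53, while the p53-inducible subunit Rrm2b fell (-0.61 and -0.87). Mitosis and G2/M genes gave these counts: of 30, 11 were higher and 1 lower in Polg+/+ and 18 higher and 2 lower in PolgD257A, with medians of 0.46 and 0.69. The PolgD257A values here include B-IRI PolgD257A replicate 2, the highest library for this list. Relative to sham Polg+/+, the mean log2 level of the list ran from 0.0178 to 1.66 in B-IRI PolgD257A. Summed normalized counts had a median of 1961 in B-IRI PolgD257A and 1970 in B-IRI Polg+/+. Cdk1, the mitotic kinase, rose by 1.10 and 1.74 and Ttk, the spindle checkpoint kinase, by 1.49 and 1.78; the checkpoint protein Mad2l1 rose by 0.63 and 0.92. Anln, a cytokinesis scaffold, changed by 0.60 ± 0.24 (adjusted p = 0.053) and 1.59 ± 0.24 (adjusted p = 3.3e-06). Mki67, the proliferation antigen, changed by 0.75 ± 0.31 (adjusted p = 0.053) and 0.67 ± 0.31 (adjusted p = 0.062), and passed in neither genotype. Cenpe, a kinetochore motor, fell by 0.80 and 0.83, and Nusap1, a spindle protein, fell by 0.53 in PolgD257A. The difference between the lists was not tested.

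Markers of other cell types moved with B-IRI as well, and their part in the results above was not tested. The shares of all genes tested were 21.4% higher and 19.8% lower in Polg+/+, and 30.2% and 30.3% in PolgD257A. Of 8 fibroblast markers, 6 were higher and 1 lower in Polg+/+ and 7 higher and 1 lower in PolgD257A; their summed normalized counts ran from 4273 to 5344 and 3782 to 5143 in sham (Polg+/+, PolgD257A) and from 6423 to 14433 and 12413 to 20769.6 after B-IRI. Of 10 macrophage and monocyte markers, 4 and then 5 were higher and 1 lower, and their sums overlapped between sham (2785 to 3677) and B-IRI (2382 to 4393). Of 3 neutrophil markers tested (6 were listed), 2 were higher in Polg+/+ and 3 in PolgD257A (median log2 change 2.48 and 3.23). Their level was low, with sums of 14.8 to 49.7 in sham and 37.1 to 482 after B-IRI, Mpo at 0 in 23 of 24 libraries and Ly6g at 0 in 15. Of 8 T and NK cell markers, 0 were higher in either genotype, and 1 and then 2 were lower. Of 5 B and plasma cell markers tested, 0 were higher, and 0 and then 3 were lower. Of 6 endothelium markers, 0 and then 3 were higher and 1 lower in each genotype, and of 5 podocyte markers, 1 and then 2 were higher. Kidney epithelium markers summed to 330675 to 378671 in sham, 267168 to 311338 after B-IRI in Polg+/+ and 164021 to 223928 after B-IRI in PolgD257A, with 3 higher and 4 lower of 10 in Polg+/+ and 1 higher and 5 lower in PolgD257A. All 5 tubule injury markers were higher in both.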

How the data were processed

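Kidney RNA from 24 samples was extracted with an RNeasy kit and sequenced after NEBNext Ultra II library preparation, per the labels' protocols. FastQC, STAR, SAMtools, featureCounts and DESeq2 and the build GRCm38.p6 are named in the submitters' processing notes, without versions. The authors deposited normalized counts, a signal in which each read count is divided by a size factor of its library, and a table of log2 differences with their standard errors (a score per gene) and s-values (read like an adjusted p-value), whose genotypes were read from the name of the table. Dividing by the smallest step of each column gave whole reads for 100% of values (within 0.001 of a whole number), with size factors of 0.74 to 1.31. The columns are named Ctrl, Mut and SurgBIR and were read as Polg+/+, PolgD257A and B-IRI from these names.

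The 17430 genes that reached 10 normalized counts in 6 or more libraries were tested with limma 3.58.1 in R 4.3.3 (trend, two-sided) on log2(normalized count + 1), with 1 mean per group over all 24 libraries, and Benjamini-Hochberg adjustment per comparison at 0.05. A fold change is on this scale, which understates the change of low genes. The fit was tested on simulated data. Alternatives were other pseudocounts (0.5, 5), no filter or a filter at 50, TMM or quantile scaling, library weights, only the libraries compared, a replicate block, edgeR 4.0.16, DESeq2 1.42.0, thinning to the lowest depth, and each library left out. The genes and lists were chosen with earlier results of these data known. Genes given with all ranges were the 2 with the largest mean absolute change in each role and those past the threshold in the interaction; Gins4, Mcm10 and Rfc2 were added after their values were seen. Gene positions are from GENCODE M21 and promoters from RefSeq, both GRCm38. In the other lists, the 4 genes with the smallest adjusted p after B-IRI, those against the majority, and Cdkn1a, Ccnd1 and Mki67 were named, with Cdkn2c added later. One gene that these rules name is not reported here. No 2 libraries of a group agreed within sampling noise. Depth limits the precision of genes with few counts, such as Cdc6, Orc1 and Ccne1.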

Additional observations from a re-analysis of the deposited data

Results flagged for a closer look

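In 9 of 160 sets of 6 libraries (each of the 40 genes in each group), 1 library lay far from the other 5 by Dixon's criterion. Chance alone meets it in about 1 of 20 sets of independent values with a normal spread. Here it was read on normalized counts without a log, for genes that moved together. The share of all genes tested that meet it is not given. In 5 of the 9 it was B-IRI PolgD257A replicate 2, always as the highest. Its normalized count was 218.1 for Prim2 (the next library had 154.1), 364.3 for Chaf1a (next 256.6), 279.8 for Chaf1b (next 176.6), 122.6 for Ccne1 (next 60.81) and 241.8 for Ccne2 (next 123.3). The remaining 4 were in sham kidneys. Mcm2 was at 396.6 in sham PolgD257A replicate 5 (next 347.4). Mcm4 was at 131.3 in sham PolgD257A replicate 6, the lowest of its group (next 161.7). Chaf1a was at 50.87 in sham Polg+/+ replicate 5, also the lowest (next 73.01), and Ccne2 at 35.19 in sham PolgD257A replicate 3, again the lowest (next 52.85).

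The change after B-IRI differed between genotypes for 3 genes by the interaction term (limma). The log2 value, PolgD257A minus Polg+/+, was 0.5765 for Cdt1, 0.5886 for Rfc3 and 0.4027 for Dnmt1.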

How the results depend on the processing

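Over 7150 values of single genes under the alternatives, 7051 kept their side of the threshold, 61 lost and 38 gained it, and none past the threshold changed sign. In 141 of the 7051 the sign changed while the gene passed in neither fit. Leaving out 1 library at a time gave 33 to 37 higher genes after B-IRI in Polg+/+ and 37 in each case in PolgD257A. It gave 4 to 12 higher and 0 to 1 lower between genotypes after B-IRI, and 3 to 4 in the interaction. The count between genotypes after B-IRI was also 4 with no filter, with library weights and with only the libraries compared; the cause was not tested, except that the last leaves fewer samples. The median difference in sham, 0.0088, changed sign with edgeR (-0.0022) and DESeq2 (-0.0027) and ran from -0.0098 to 0.042 with 1 library left out. With library weights the median was 0.1564 between genotypes after B-IRI (0.2524 unweighted) and 0.0891 in the interaction (0.2271 unweighted). TMM, quantile scaling and the count tools moved the median of all genes by at most 0.0099. Replicate numbers did not pair the samples: deviations of same-numbered libraries correlated at -0.326 to 0.174 (mean -0.019), and 3 of 24 libraries correlated best with their own number. With the replicate block, 36, 37, 0, 6 and 3 genes were higher in the 5 comparisons (against 36, 37, 0, 7 and 3). At this depth, Orc1, Cdc6 and Ccne1 had few sham reads and the widest intervals. With E2F-type runs read on the gene's strand alone, 8 of the 32 genes with a window held one, as did 1.38% of all genes with a window. Protein sequences were not used here, so the planned protein comparison was not run.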
